A study of Mus musculus with 6 samples.

Results

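The nuclear genes for the mitochondrial respiratory chain were examined in RNA-seq of mouse kidney. They were taken by symbol from the deposited table: names beginning with Nduf followed by a, b, c, s or v, the names Sdha, Sdhb, Sdhd and Cyc1, names beginning with Uqcr or Atp5, and the Cox4 to Cox8 families, with names ending in -ps left out as pseudogenes. The rule gave 93 of 51804 gene symbols and left out 7 -ps names. Of the 93, 83 encode subunits or subunit paralogs of the complexes: 36 for complex I, 3 for complex II, 9 for complex III, 20 for complex IV and 15 for complex V. Ndufa4 and Ndufa4l2 are counted here with complex IV, since Ndufa4 protein is now placed there. Of the other 10, 8 are complex I assembly factors (Ndufaf names), and Atp5s and Atp5sl carry the ATP synthase name without being subunits.

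The respiratory chain sits in the inner mitochondrial membrane. Complexes I and II pass electrons from NADH and succinate to coenzyme Q, complex III passes them to cytochrome c, and complex IV to oxygen, while complexes I, III and IV pump protons that drive ATP synthesis by complex V. Kidney tubules, the proximal tubule above all, are packed with mitochondria and depend on this pathway for salt and solute transport. A small set of subunits is encoded by mitochondrial DNA, and the rest are nuclear. Only the nuclear genes that the rule takes by name are described here. The rule leaves out Sdhc, a further complex II subunit.

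The libraries labelled knockout (n = 3) carry Ccnb1f/f together with Cdh16-Cre, and the controls (n = 3) carry Ccnb1f/f alone, so the floxed cyclin B1 gene is common to both groups. The Cdh16 promoter drives Cre recombinase in tubular epithelium, while the libraries came from kidney, which also holds vessels, stroma and immune cells. The sources used here give neither age nor strain and do not say that replicates are separate animals, so every p-value reflects only how these 6 libraries vary, which may be technical. The comparison asks what differs in kidneys where cyclin B1 deletion is directed to the tubule, which the study relates to ageing and fibrosis. Ccnb1 itself was at 1.04, 0.946 and 0.507 CPM (the CPM scale sets counts to a common library total) in the labelled knockouts and at 0.668, 0.861 and 0.409 CPM in the controls, and the groups overlapped. Its log2 fold change of 0.34 (SE 0.46, adjusted p = 0.999 by edgeR's quasi-likelihood test) does not show the deletion, so the group is called labelled knockout throughout. Libraries held 16061435 to 21261226 estimated counts, of which 1.93% to 2.24% fell on the respiratory chain genes. Over all 15017 genes tested, 2 passed the threshold of adjusted p under 0.05: Kap, lower, and Mcm6, higher in the labelled knockouts. Control 2 stood apart from the other libraries on the leading principal component of all genes, at -49.6 against -7.23 to 22.1.

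Most of these genes were among the abundant transcripts of the kidney. On FPKM (counts scaled by transcript length and library total, a level that can be compared between genes), 59 of the 93 averaged 100 or more over the 6 libraries, and 5 averaged under 1. Atp5b, the catalytic beta subunit of ATP synthase, was the highest at 2547 FPKM, followed by Atp5a1, the alpha subunit, at 1108 FPKM. The next were subunits of cytochrome c oxidase: Cox6a1 at 810 FPKM, Cox8a at 803 FPKM and Cox4i1 at 758 FPKM. Sdha, the flavoprotein of succinate dehydrogenase, led complex II at 433 FPKM, and Uqcr10, a small subunit, led complex III at 377 FPKM. Complex I genes lay lower, with Ndufb9, an accessory subunit of the membrane arm, at 256 FPKM. Its assembly factors, which are not part of the finished complex, ranged from 9.09 FPKM for Ndufaf5 to 31.2 FPKM for Ndufaf8. The deposited FPKM of 3 members imply a length more than 10% away from the exon length of their main transcript, so their place in this order is uncertain: Ndufa11 (2661 against 545 bases), Cyc1 (1194 against 1520 bases) and Ndufaf7 (2303 against 1749 bases).

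**Figure D1:**
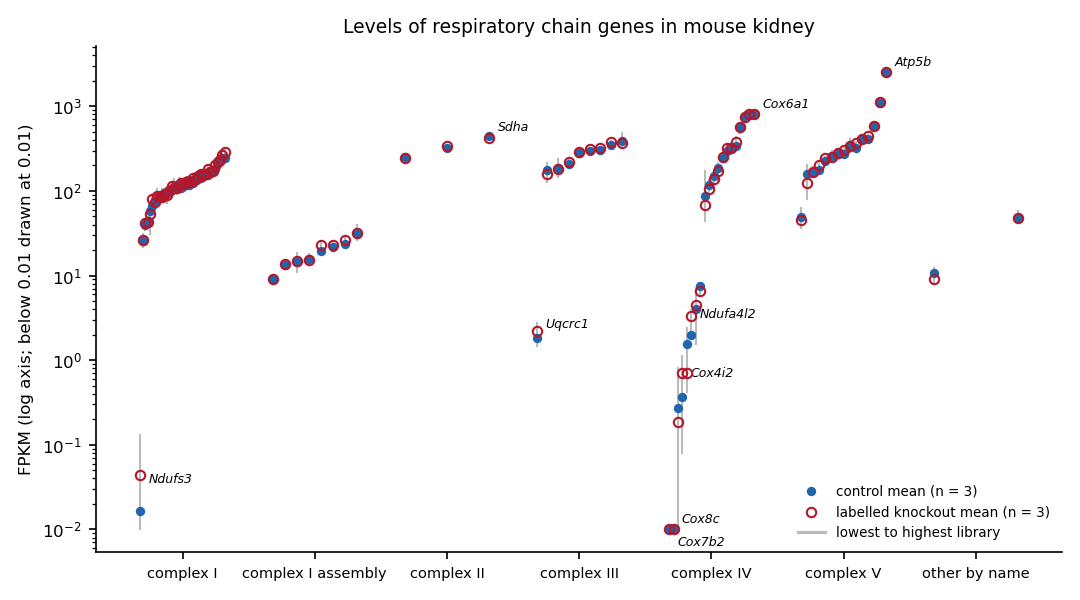
Mean FPKM of each of the 93 genes (log axis) in the control and labelled knockout libraries, grouped by complex, with grey lines from the lowest to the highest library. The group means nearly coincide for abundant genes, and Ndufs3 and Uqcrc1 lie far under the other genes of their complexes.

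No respiratory chain gene passed the test in either direction, in edgeR's quasi-likelihood fit of all genes. Of the 93 members, 88 passed the filter on low counts and were tested, and 0 had an adjusted p under 0.05, where the share of all genes called was 0.0133%. None of the 88 had an unadjusted p under 0.05 either, against 3.23% of all genes, and none was called by DESeq2 or limma. The median log2 fold change of labelled knockout over control was 0.029 over the members and -0.0051 over all genes. Fitted values were above 0 for 55 members and below 0 for 33, where 49.0% of all genes were above 0. For 77 of the 88, the 95% confidence interval lay within 1.5-fold in both directions, so changes of that size fall outside the interval for most members. The median changed sign when labelled knockout 1 (-0.040) or control 2 (-0.040) was left out, and was 0.12 without control 1.

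**Figure D2:**
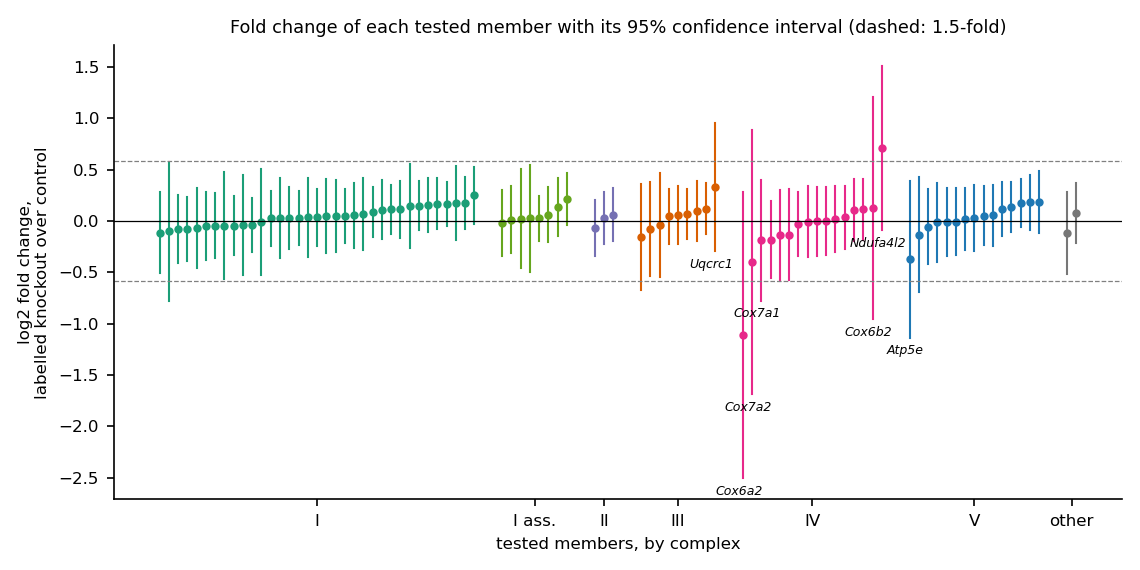
Fitted log2 fold change of each of the 88 tested members with its 95% confidence interval, ordered by complex and then by value, with dashed lines at 1.5-fold. All intervals cross 0, and the widest belong to Cox6a2, Cox7a2 and Cox6b2.

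In 8 members every library labelled knockout lay above every control, where 4.1% of all genes did so, and no member lay wholly below, where 4.08% of all genes did. They included Ndufs1, Ndufb2 and Ndufb5 of complex I, the assembly factor Ndufaf1, Uqcrfs1 of complex III, and Atp5c1 and Atp5f1 of complex V. None of them passed the test. As described further on, 7 of the 8 have an exon length of 1000 bases or more.

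Complex I takes electrons from NADH through a peripheral arm that carries flavin and iron-sulfur clusters. Of its 35 tested subunit genes, 23 had fitted values above 0 and 12 below, with a median of 0.037. Ndufs1, the largest iron-sulfur subunit, was at 396, 409 and 391 CPM in the labelled knockouts against 371, 331 and 378 CPM in the controls. Ndufv1, which holds the flavin that accepts electrons from NADH, was at 335, 321 and 308 CPM against 335, 256 and 303 CPM. The groups did not overlap for Ndufs1 and overlapped for Ndufv1, and in both genes control 2 was the lowest of the 6. The 6 core subunits tested had a median of 0.11 and the 29 accessory subunits one of 0.030.

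Among accessory subunits, Ndufb5 of the membrane arm was at 143, 135 and 133 CPM in the labelled knockouts and at 128, 118 and 121 CPM in the controls (log2 fold change 0.17, SE 0.092, not past the threshold). Ndufb9 was at 186, 164 and 166 CPM against 173, 151 and 161 CPM. The groups were separate for Ndufb5 and overlapped for Ndufb9, by differences of a few CPM. The lowest fitted value in complex I was that of Ndufb6, also of the membrane arm, at -0.11 (SE 0.17). Ndufa3, a small subunit of low level, varied most across libraries, from 11.6 CPM in labelled knockout 3 to 26.8 CPM in labelled knockout 1.

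The assembly factors put complex I together and leave it. Ndufaf1, which acts on the membrane arm, was at 32.7, 28.2 and 28.4 CPM in the labelled knockouts and at 26.4, 25.6 and 24.8 CPM in the controls. These groups did not overlap, with a log2 fold change of 0.22 (SE 0.11) that did not pass the test (adjusted p = 0.999, edgeR). Ndufaf6 was at 21.0, 21.4 and 21.4 CPM against 21.1, 17.1 and 19.9 CPM, and Ndufaf4 at 59.4, 56.5 and 46.3 CPM against 52.4, 52.2 and 50.5 CPM. In Ndufaf6 only control 2 stood clearly lower, and in Ndufaf4 the labelled knockout libraries lay on both sides of the controls. The 8 factors had a median log2 fold change of 0.027.

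Complex II is the only complex of the chain whose subunits are all nuclear, and it is also an enzyme of the tricarboxylic acid cycle. Sdha was at 1018, 983 and 944 CPM in the labelled knockouts and at 995, 883 and 1008 CPM in the controls. Sdhb, the iron-sulfur subunit, was at 396, 392 and 370 CPM against 403, 332 and 374 CPM, and Sdhd, a membrane anchor, at 313, 282 and 299 CPM against 340, 273 and 322 CPM. All 3 overlapped between groups, with log2 fold changes of 0.029, 0.061 and -0.065 and standard errors of 0.11 to 0.12.

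Complex III moves electrons from coenzyme Q to cytochrome c. Uqcrfs1, its Rieske iron-sulfur protein, was at 525, 518 and 512 CPM in the labelled knockouts and at 497, 431 and 506 CPM in the controls. The groups were separate by a margin of less than 7 CPM, and the log2 fold change was 0.12 (SE 0.11). Cyc1, cytochrome c1, was at 383, 390 and 386 CPM against 412, 308 and 365 CPM, and Uqcrc2, a large scaffold subunit, at 546, 613 and 580.5 CPM against 561, 523 and 576 CPM. For these large subunits the labelled knockouts lay within or above the range of the controls, with control 2 lowest in each gene. The small subunit Uqcr10 was at 193, 153 and 143 CPM against 223, 137 and 155 CPM, high in replicate 1 of both groups. The 4 large subunits had a median of 0.11 and the 5 small ones a median of -0.040, with no member called in either set.

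Complex IV reduces oxygen, and several of its nuclear subunits come in pairs of a general and a tissue-restricted isoform. Its 16 tested genes had the lowest median of the complexes, -0.0049, with 7 fitted values above 0 and 9 below, and 0 members with separate groups. Cox6a1 was at 517, 472 and 402 CPM in the labelled knockouts and at 517, 394 and 483 CPM in the controls, and Cox4i1 at 634, 512 and 537 CPM against 633, 505 and 577 CPM. Cox8a was at 474, 457 and 395 CPM against 502, 373 and 434 CPM. All 3 overlapped fully between groups, with log2 fold changes from -0.027 to 0.018. Ndufa4 was at 382, 379 and 285 CPM against 388, 308 and 355 CPM, also without separation.

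In the Cox4, Cox6a, Cox6b and Cox8 families the kidney used the general isoforms almost alone, in both groups. Cox4i1 made up 99.8% or more of the FPKM of its pair with Cox4i2, the isoform known from lung and from low oxygen. Cox6a1 made up 99.7% or more against Cox6a2, the heart and muscle isoform, and Cox6b1 97.7% to 99.5% against Cox6b2, the testis isoform. Cox8a made up at least 99.9% of its family, with Cox8b, a heart and muscle isoform, at 0 to 5 counts per library and Cox8c, a testis isoform, at 0 counts in all 6. Cox7b2, another testis isoform, was also listed at 0 counts in every library. Since genes near Ndufs3 and Uqcrc1 were listed at 0 as well (described further on), no upper limit is drawn from the zeros of Cox7b2 and Cox8c. The Cox7a family was less one-sided. Cox7a1, the heart and muscle isoform, was detectable at 7.03 FPKM on average. This was 2.74% to 4.53% of the FPKM of Cox7a1, Cox7a2 and the supercomplex factor Cox7a2l together. Without Cox7a2l the share of Cox7a1 is larger: it was at 5.70 to 8.20 FPKM, and the general isoform Cox7a2 at 43.7 to 170 FPKM.

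The largest fitted value in each direction belonged to a paralog or isoform of low level. Ndufa4l2, the low-oxygen paralog of Ndufa4, was at 3.71, 3.72 and 1.80 CPM in the labelled knockouts and at 2.25, 1.62 and 1.75 CPM in the controls. Labelled knockouts 1 and 2 stood above the rest, and labelled knockout 3 lay among the controls. The log2 fold change was 0.71 (SE 0.35, adjusted p = 0.999, edgeR). Cox6a2 was at 0.290, 0.505 and 0.646 CPM against 1.15, 0.355 and 1.69 CPM, on 5 to 29 counts per library, with a fitted log2 fold change of -1.11 (SE 0.61) that ranged from -1.54 without control 2 to -0.60 without control 3. Its groups overlapped through control 2. Cox6b2 was at 2.61, 1.77 and 2.58 CPM against 1.94, 3.55 and 0.876 CPM, the controls spanning the labelled knockouts on both sides.

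Among the abundant genes Cox7a2, the general isoform of subunit VIIa, varied most. It was at 35.1, 28.8 and 69.7 CPM in the labelled knockouts and at 116, 27.1 and 33.8 CPM in the controls. Labelled knockout 3 and control 1 were high and the other 4 libraries were close together, so the difference lay within both groups rather than between them. The log2 fold change was -0.40 (SE 0.56) with all libraries and 0.55 without control 1. Cox7a2l, a factor of supercomplexes of III and IV, was at 143, 97.3 and 96.8 CPM against 127, 135 and 120 CPM. The high Cox7a2 libraries were not the high Cox7a2l libraries: labelled knockout 3 was lowest for Cox7a2l and labelled knockout 1 highest.

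Complex V turns on a proton-driven ring and makes ATP in its catalytic head. Atp5b (chr10:128083273-128090391, GRCm38) was at 3732, 3747 and 3605 CPM in the labelled knockouts and at 3877, 3171 and 3616 CPM in the controls. Atp5a1 had a similar pattern, at 2871, 2778 and 2722 CPM against 2929, 2429 and 2718 CPM. In both, control 1 was highest and control 2 lowest, and the log2 fold changes were 0.056 (SE 0.13) and 0.052 (SE 0.12). Atp5f1, of the peripheral stalk, was at 498, 489 and 492 CPM against 450, 404 and 456 CPM (log2 fold change 0.18, SE 0.10). Atp5c1, the central stalk, was at 519, 527 and 520 CPM against 499, 436 and 492 CPM. In these stalk subunits the labelled knockouts were close together above a wider set of controls, and neither passed the test. Atp5h, also of the peripheral stalk, was at 218, 201 and 190 CPM against 201, 170 and 166 CPM, with labelled knockout 3 below control 1. Atp5e, the small epsilon subunit, had a fitted value below 0 (log2 fold change -0.37, SE 0.33). That value ranged from -0.91 without labelled knockout 1 to -0.13 without labelled knockout 3. Atp5e was at 87.2, 39.7 and 34.5 CPM against 82.2, 57.1 and 69.2 CPM, with labelled knockout 1 highest and the other labelled knockouts lowest.

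The ring itself is built from subunit c, for which Atp5g1, Atp5g2 and Atp5g3 encode the same mature protein behind different targeting peptides. The ends of the coding sequences are shown because they carry the part common to the mature proteins and give how far the genes differ there. They are the last 90 coding bases of each before the stop codon, from GENCODE M21, with capitals at the 24 positions where the genes are not all identical. Of those 24, 20 are the third base of a codon.
Atp5g1: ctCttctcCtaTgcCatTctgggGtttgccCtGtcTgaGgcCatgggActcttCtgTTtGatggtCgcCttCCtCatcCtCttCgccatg
Atp5g2: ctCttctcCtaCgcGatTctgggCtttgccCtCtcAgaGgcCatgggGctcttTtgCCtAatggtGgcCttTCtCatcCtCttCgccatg
Atp5g3: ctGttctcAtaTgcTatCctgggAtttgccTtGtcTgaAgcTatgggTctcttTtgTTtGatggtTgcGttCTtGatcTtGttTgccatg

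Over the last 225 coding bases, Atp5g1 and Atp5g2 were 84.89% identical, Atp5g1 and Atp5g3 80.0%, and Atp5g2 and Atp5g3 78.67%. Atp5g3 supplied most of the subunit c message, 60.9% to 63.9% of the FPKM of the 3 genes over all libraries. The share of Atp5g1 was 20.7%, 21.8% and 20.5% in the labelled knockouts and 18.7%, 18.9% and 19.1% in the controls. These shares, taken without the copies described next, did not overlap between groups, whereas the levels of Atp5g1 did: it was at 140, 131 and 111 CPM against 122, 97.9 and 117 CPM (log2 fold change 0.18, SE 0.13). Atp5g2 was at 138, 117 and 110 CPM against 134, 101 and 124 CPM, and Atp5g3 at 473, 414 and 383 CPM against 484, 361 and 431 CPM, both overlapping. A processed copy of Atp5g1, Gm10039, is 99.76% identical over 411 bases and took 520 to 764 counts per library. With copies added, Atp5g1 was at 177, 164 and 143 CPM against 168, 128 and 150 CPM, and its log2 fold change was 0.12.

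Ndufs3, a core subunit of complex I, was almost missing from the table. It had 2, 0 and 0 counts in the labelled knockouts, against 0, 0 and 1 in the controls, so it was not tested. Complex I cannot be built without it, and other core subunits were abundant, such as Ndufv1 at 191 FPKM and Ndufv2 at 125 FPKM. The gene lies at chr2:90894634-90904827 (GRCm38, minus strand) and overlaps the start of Kbtbd4 by 88 bases. Its near neighbours Kbtbd4, Ptpmt1 and C1qtnf4 had 0 counts in all 6 libraries, and Celf1, an RNA-binding protein gene, only 12 to 26. Mtch2, a mitochondrial carrier homolog gene 27824 bases away, had 1255 to 1544 counts. What produced the low counts of adjacent genes was not tested.

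A processed copy of Ndufs3, Gm12251 on chromosome 11, had 130, 104 and 135 counts in the labelled knockouts and 93, 122 and 100 in the controls. The copy is 98.6% identical to the Ndufs3 transcript over 792 bases, with 11 mismatches. The opening 90 coding bases of Ndufs3 and the matching stretch of the copy (from chr11:58392769-58393560) are shown to make plain how few bases separate them, with capitals at the 3 mismatches in this stretch.
Ndufs3: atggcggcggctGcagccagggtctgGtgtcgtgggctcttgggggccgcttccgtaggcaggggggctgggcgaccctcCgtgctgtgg
Gm12251: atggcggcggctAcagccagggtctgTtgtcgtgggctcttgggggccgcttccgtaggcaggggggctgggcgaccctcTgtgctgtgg

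Uqcrc1, the other large scaffold subunit of complex III (chr9:108936633-108949623, GRCm38), showed a similar gap. It had 50, 73 and 79 counts in the labelled knockouts and 59, 56 and 42 in the controls, a mean of 2.02 FPKM. Its partner Uqcrc2, with which it is assembled in equal number, was at 303 FPKM. Uqcrc1 gave 2.90, 4.60 and 3.64 CPM against 3.58, 2.84 and 2.45 CPM, overlapping groups with a log2 fold change of 0.33 (SE 0.27), which was 0.14 without labelled knockout 2 and 0.21 without control 3. Near it, Slc26a6, a kidney anion exchanger, Celsr3 and Tmem89 had 0 counts in every library. On the other side, Col7a1, 3963 bases away, had 28 to 71 counts, and Pfkfb4, 42155 bases away, had 134 to 213. Shisa5, 88942 bases away, had 2022 to 2884.

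**Figure D3:**
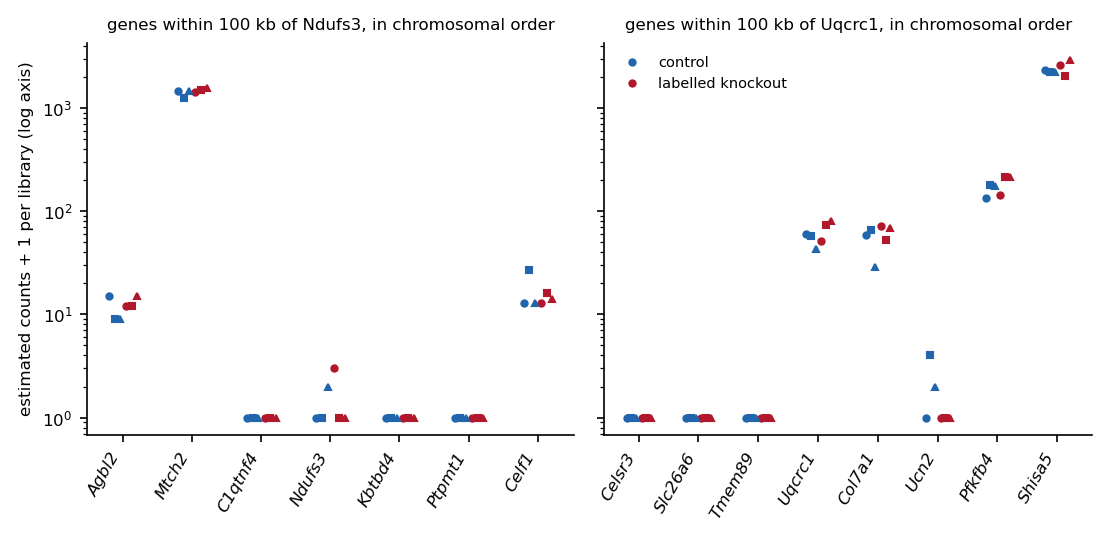
Estimated counts plus 1 in each library (log axis) for genes within 100000 bases of Ndufs3 and of Uqcrc1, in chromosomal order, leaving out Gm and microRNA genes. Several adjacent genes lie at 0 counts in all 6 libraries, while Mtch2 and Shisa5 have over 1000 counts in each.

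Other members also have near-identical copies elsewhere in the genome. Of the 93, 18 have a transcript of another locus that is at least 95% identical over 300 bases or more, and in 4 of them those copies held 10% or more of the joint counts. The 4 were Ndufs3 (99.6% in copies), Ndufa12 (23.8%, mostly Gm15920), Atp5g1 (22.7%) and Atp5h (11.6%, Gm10250). For 81 members the copies held under 1%. Counts of single copies could swing between libraries: Gm10231, identical to Atp5g2 over 441 bases, had 0, 0 and 137 counts in the labelled knockouts and 227, 274 and 0 in the controls. With copies added, Atp5g2 was at 138, 118 and 117 CPM against 148, 115 and 125 CPM, and its fitted log2 fold change went from 0.028 to -0.055. Whether reads were assigned to the right locus was not tested, so levels of these genes are uncertain, and 0 members were called with copies added.

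The members varied together from library to library, within each group. Summed over all 93, the level was 22416, 21166 and 20013 CPM in the labelled knockouts (mean 21199 ± 1202, SD, n = 3) and 22660, 18173 and 20707 CPM in the controls (20513 ± 2249, SD, n = 3). The difference of the group means is smaller than either SD. Of the 88 tested members, 37 were highest in labelled knockout 1 and 36 in control 1, while 57 were lowest in control 2 and 21 in labelled knockout 3. The median member stood 0.15 above its own 6-library mean in labelled knockout 1 and 0.16 above it in control 1 on the log2 scale, and 0.19 below it in control 2 (-0.19). Complexes I to V and the complex I assembly factors each had their highest sums in replicate 1 of both groups and their lowest in control 2. The summed level of 14 proximal tubule markers had the same extremes among controls: 24451, 19933 and 22881 CPM, against 23011, 21391 and 20932 CPM in the labelled knockouts. Fewer cells of a type and less RNA per cell cannot be told apart in whole tissue, and the part of proximal tubule RNA in the members' shifts was not tested.

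**Figure D4:**
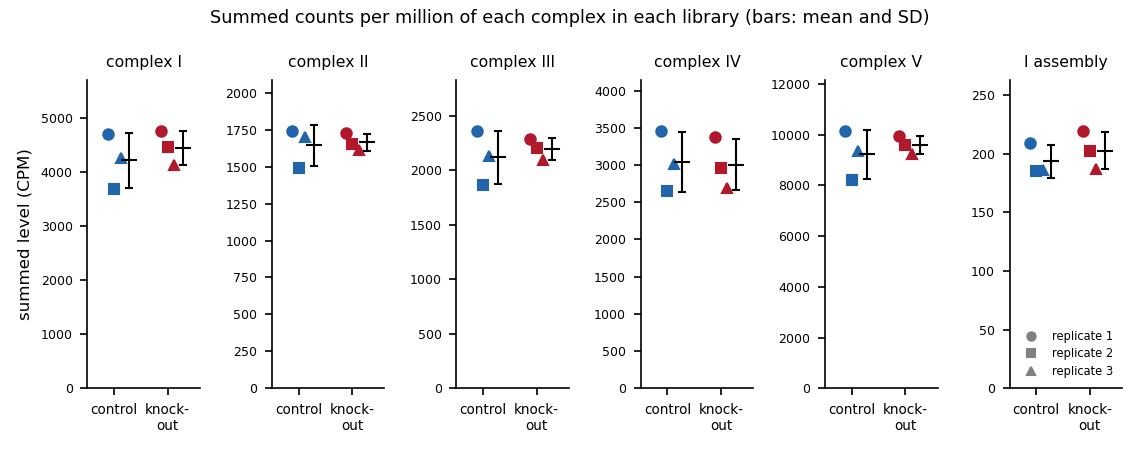
Summed TMM-normalised CPM of each complex and of the complex I assembly factors in each library, with group means and SD as black bars. In every panel replicate 1 is highest within each group, control 2 is lowest, and the groups overlap.

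These library shifts differed with transcript length. Of the tested members, 54 have a main transcript with an exon length under 1000 bases and 34 one of 1000 bases or more. In control 1 the shorter members stood 0.20 above their own means (median, log2 scale) and the longer ones 0.063. In labelled knockout 3 the order was opposite, with medians of -0.14 for the shorter and -0.0092 for the longer. Across the 88 members, Spearman's rho between this deviation and exon length was -0.44, 0.33 and 0.37 in labelled knockouts 1 to 3 and -0.47, 0.11 and -0.066 in controls 1 to 3. This is a description over genes that share the same libraries and depth. The fitted log2 fold change showed the same tendency: its rho with exon length was 0.38 over the 88 members, and its median was 0.010 for the shorter and 0.073 for the longer ones. Of the 34 longer members, 27 had fitted values above 0, and 7 of them are among the 8 whose groups did not overlap. The core subunits of complexes I and III, whose medians were highest, are mostly such longer transcripts; the part of length in their values was not tested.

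**Figure D5:**
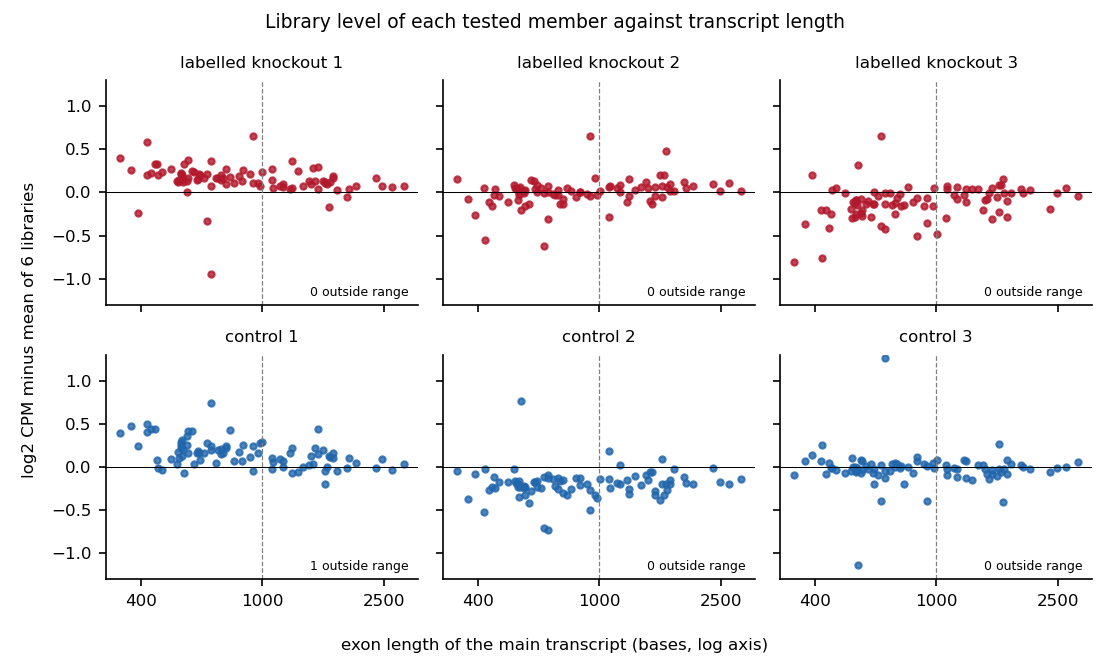
Deviation of each tested member from its own mean over the 6 libraries (log2 CPM) against the exon length of its main transcript (log axis), with a dashed line at 1000 bases. Short transcripts lie above 0 in labelled knockout 1 and control 1 and mostly under 0 in labelled knockout 3, while nearly all members lie under 0 in control 2.

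Promoter sequence, which the choice by name did not use, was searched for 5 motifs of known regulators. Promoter windows from RefSeq (GRCm38.p6, 250 bases before to 50 after each start) matched 77 of the 93 members with 83 windows. The motif GCGCATGC, searched on both strands like the others and known as the core of the site of NRF1, a regulator of respiratory genes, was in 14.5% of member windows, in 2.71% of all windows and in 4.68% of windows of tested genes. AAGATGGC, a YY1 motif, was in 15.7%, 2.75% and 4.09%. TCAAGGTCA, the site of the estrogen-related receptors, was in 2.41%, 0.423% and 0.276%, which is only 2 members, Sdhd and Atp5g3. CCGGAAGT, the ETS motif read by GABP, was in 6.02%, 3.89% and 7.4%, and GGGCGG, the Sp and KLF box, in 43.4%, 35.7% and 60.3%. For these last motifs the members lay above all windows and below windows of tested genes. A match describes letters, not binding, and windows of 1 gene can overlap.

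The following stretches are the 120 bases before the start of 4 genes, chosen among those with a match in these bases to show 3 of the motifs in complexes II, III and V, with the match in capitals. Matches elsewhere in a window are not shown. Sdhb (chr4:140961151-140961270, plus strand) has the NRF1 motif 54 bases before the start, and Atp5g2 (chr15:102671048-102671167, minus strand) has overlapping matches at 42 and 40 bases. Uqcrh (chr4:116075071-116075190, minus strand) has the ETS motif 11 bases before it, and Atp5g3 (chr2:73911327-73911446, minus strand) has the estrogen-related receptor motif 52 bases before it.
Sdhb: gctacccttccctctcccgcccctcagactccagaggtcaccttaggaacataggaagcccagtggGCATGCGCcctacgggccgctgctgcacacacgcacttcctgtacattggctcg
Atp5g2: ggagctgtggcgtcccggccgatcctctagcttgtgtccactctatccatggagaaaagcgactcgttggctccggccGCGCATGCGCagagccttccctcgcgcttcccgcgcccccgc
Uqcrh: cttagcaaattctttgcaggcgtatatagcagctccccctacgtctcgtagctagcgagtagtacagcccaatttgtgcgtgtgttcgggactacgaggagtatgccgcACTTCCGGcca
Atp5g3: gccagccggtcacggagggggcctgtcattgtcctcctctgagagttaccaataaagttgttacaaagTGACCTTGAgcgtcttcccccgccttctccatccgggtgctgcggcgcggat

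The NRF1 motif was found in members of every complex: Ndufa6, Ndufa8 and Ndufa11 of complex I, Sdhb of II, Uqcr11 and Uqcrc1 of III, Cox6a1 of IV, and Atp5g2, Atp5k and Atp5l of V, besides the assembly factors Ndufaf4 and Ndufaf5. The factors that read these motifs were themselves not called. Of 14 regulators of respiratory genes tested, such as the coactivators of the PGC-1 family, Nrf1, Gabpa, Esrra and Yy1, 5 had fitted values above 0 and 9 below, with a median of -0.011. Ppargc1b, a PGC-1 coactivator, had the lowest p of them, at 6.72, 11.9 and 10.2 CPM in the labelled knockouts against 11.0, 12.2 and 10.7 CPM (log2 fold change -0.24, SE 0.22). Only labelled knockout 1 stood apart, below all the others.

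The rest of the pathway gave the same picture, with 0 genes called in any list. Of 19 genes for electron carriers and coenzyme Q synthesis, 14 had fitted values above 0, with a median of 0.068. Coq3, a methyltransferase of coenzyme Q synthesis, was at 19.8, 22.1 and 22.9 CPM in the labelled knockouts and at 18.2, 16.6 and 16.6 CPM in the controls. Its groups did not overlap, and its log2 fold change of 0.33 (SE 0.12) had an unadjusted p of 0.0253 and an adjusted p of 0.999 in edgeR. Assembly factors of complexes II to V (27 tested) had a median of 0.039. Among them Atpaf2, a chaperone of the ATP synthase alpha subunit, was at 30.7, 27.8 and 28.8 CPM against 26.2, 21.2 and 24.4 CPM, separate groups with an adjusted p of 0.999 (edgeR).

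Values above 0 were the majority in the other nuclear mitochondrial lists too: 12 of 18 tricarboxylic acid cycle genes (median 0.052), 7 of 9 genes of ATP export (0.075), 11 of 12 cristae and supercomplex factors (0.095) and 18 of 22 genes of mitochondrial translation (0.072). In each of these lists control 2 had the lowest sum of the 6 libraries. Pdhx, which holds the pyruvate dehydrogenase complex together, was at 49.9, 54.1 and 51.2 CPM against 48.8, 40.8 and 44.9 CPM, and Ucp2, an inner membrane carrier, at 81.5, 93.2 and 127 CPM against 95.8, 74.5 and 55.5 CPM. Pdhx separated the groups and Ucp2 did not.

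The mitochondrial-DNA partners of these subunits were unevenly recorded. Of 13 genes, mt-Co1, mt-Co3, mt-Atp6 and mt-Atp8 were listed at 0 in every library, and 9 were tested, with a median of 0.050. mt-Cytb, the mitochondrial subunit of complex III, was at 15299, 15091 and 11496 CPM in the labelled knockouts and at 15523, 13969 and 13904 CPM in the controls. mt-Co2, an oxidase subunit, was at 686, 1583 and 417 CPM against 131, 742 and 32.5 CPM, and mt-Nd3, of complex I, at 32.5, 63.8 and 17.3 CPM against 6.13, 38.0 and 0.935 CPM. Both varied by more than 10-fold among controls alone, and neither was called (log2 fold changes 1.57, SE 0.97, and 1.32, SE 0.99). With a library left out, mt-Co2 ranged from 0.86 without labelled knockout 2 to 3.45 without control 2, and mt-Nd3 from 0.70 to 3.42 without the same libraries. Nuclear and mitochondrial subunits were therefore not compared for complexes IV and V.

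Markers of kidney cells and of neighbouring tissues were not called either, with 0 in any of 13 lists. The 7 intercalated cell markers, from cells rich in mitochondria, summed to 263, 246 and 249 CPM in the labelled knockouts. In the controls they summed to 237, 366 and 258 CPM, highest in control 2, where the respiratory chain was lowest. All 7 had fitted values below 0, with a median of -0.14. Of these, 1 had an unadjusted p under 0.05 (edgeR) and 1 lay wholly below the controls, where 3.23% and 4.08% of all genes did. Podocyte markers were also highest in control 2, at 528 CPM against 401 to 433 CPM in the other 5 libraries. Macrophage and monocyte markers summed to 189, 160 and 141 CPM against 124, 132 and 139 CPM. All 9 had fitted values above 0, where 49.0% of all genes did. Among the 9, 1 had an unadjusted p under 0.05 (edgeR), where 3.23% of all genes did. In 2 of the 9 every labelled knockout lay above every control, where 4.1% of all genes did so. Fibroblast and pericyte markers summed to 193, 151 and 141 CPM against 215, 195 and 178 CPM, with 7 of 8 below 0. Of these 8, 4 had an unadjusted p under 0.05, where 3.23% of all genes did (adjusted p not past the threshold, edgeR). In 3 of the 8 every labelled knockout lay below every control, where 4.08% of all genes did so. Red cell markers summed to 136 to 229 CPM, and skeletal muscle markers, whose tissue expresses Cox6a2 and Cox7a1, to 0.415 to 1.10 CPM. Adipose markers summed to 46.4 to 83.3 CPM, but single markers varied more. The 4 tested deviated from their own 6-library means by medians of 1.04, -0.99 and 0.019 in the labelled knockouts (log2 scale). In the controls the medians were 1.86, -1.65 and 0.055. On these medians replicate 1 was highest in both groups and control 2 lowest, as for the respiratory chain genes. The other libraries differed: labelled knockout 2 was at -0.99 here and at 0.020 for the respiratory chain members. The adipose sum was lowest in labelled knockout 2 (46.4 CPM), with control 2 at 48.3 CPM. The part of these cells in the members' values was not tested.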

How the data were processed

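RNA-seq of 6 mouse kidney libraries was analysed from 1 table, grouped by sample title. The authors deposited estimated counts, without normalization, and FPKM values per transcript; HISAT2 2.0.1, cutadapt 1.9.1, Cuffdiff 2.2.1, FastQC 0.10.1 and bcl2fastq 2.17.1.14 are listed, with the build GRCm38, in the submitters' processing notes, while the sources used here name neither strandedness nor the counting program. Counts were summed per gene symbol and rounded (87.9% of gene sums lay within 0.01 of a whole number). All genes were fitted with edgeR 4.0.16 in R 4.3.3 (quasi-likelihood test, TMM, default filter with minimum count 10, group only, two-sided, Benjamini-Hochberg over 15017 genes); each SE was taken as log2 fold change over the root of F. The depth was 16061435 to 21261226 counts, and 3 counts correspond to 0.141 to 0.187 CPM, for counting error only.

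Exon lengths, copies (blastn 2.17.0, at least 95% identity over 300 bases) and coding sequences came from GENCODE M21, and promoters from RefSeq GRCm38.p6. Lists were described by counts and medians, with no test over a list. The members, lists and tests were chosen with earlier results of these data known. Genes named were those past the threshold, the 2 of highest FPKM and the 2 of lowest p in each complex, 3 assembly factors, the isoform families, the 3 largest changes per direction and the 2 of lowest p in each pathway list, some of which stand only in the counts or are not reported here; further members were named after their values were seen, to show core subunits, overlap of groups, copies and gaps. Micos10 and Micos13 had no symbol in the table. The DESeq2 1.42.0, limma 3.58.1 (log2(FPKM + 1) and + 0.1), unfiltered, scaling, gene ID, replicate block and leave-one-out alternatives were planned, and the fit with copies added was chosen after seeing the data. The edgeR script was tested on simulated data.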

Additional observations from a re-analysis of the deposited data

How the results depend on the processing

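No alternative called a respiratory chain gene: the count was 0 with DESeq2, limma, no filter, other scalings, sums per gene ID, the replicate block, copies added and each library left out. The number of all genes called was 2 in edgeR, 15 in DESeq2, 5 without a filter, 1 with limma on FPKM with a pseudocount of 1 or 0.1 or without a filter, and 1 to 6 with a library left out. With the replicate number as a block, 2 genes and 0 members were called, and the members' median log2 fold change was 0.031 against 0.029. Deviations of same-numbered libraries correlated at 0.090, -0.091 and 0.12, so the numbers were not taken to pair samples; the best match was the own number for some but not all libraries. With a library left out, the median ranged from -0.040 to 0.12 over members, -0.038 to 0.16 in complex I, -0.021 to 0.13 in its assembly factors, -0.030 to 0.064 in complex II, -0.013 to 0.15 in III, -0.10 to 0.078 in IV and -0.064 to 0.12 in V. Of 766 refits of 48 named genes, 719 kept their direction and 47 changed sign; no refit moved a named gene across the threshold. Those changing sign with a library left out ranged as follows: Atp5a1 -0.017 to 0.12, Atp5b -0.020 to 0.12, Atp5g2 -0.081 to 0.12, Atp5g3 -0.11 to 0.097, Cox4i1 -0.12 to 0.054, Cox6a1 -0.11 to 0.090, Cox6b1 -0.042 to 0.15, Cox6b2 -0.24 to 0.72, Cox7a2 -0.88 to 0.55, Cox7b -0.30 to 0.045, Cox8a -0.083 to 0.13, Ndufa4 -0.092 to 0.12, Ndufaf4 -0.0098 to 0.16, Sdha -0.030 to 0.064, Sdhb -0.011 to 0.13, Sdhd -0.15 to 0.0033 and Uqcr10 -0.22 to 0.16. In limma on FPKM, with a pseudocount of 1 (also unfiltered) and of 0.1, the sign changed for Atp5b (-0.00097 in each), Atp5g3 (0.0051 in each), Cox6a1 (0.0055 in each), Ndufa4 (0.0033 in each) and Sdha (-0.051 in each). Atp5g2 was at -0.055 with copies added. The cause was not tested. At 5 to 79 counts per library, Cox6a2 and Uqcrc1 are limited by depth, and the 5 members that failed the default filter had at most 13 counts in any library.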
